A study of Homo sapiens with 3 samples.

Results

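The genes described here encode the Wnt ligands, their cell-surface receptors and the proteins that restrain them, and they were followed in UM-UC-3, a widely used cell line from a human bladder tumour. Members were chosen by gene name alone: the WNT, FZD, DKK and SFRP genes and 16 further genes of Wnt reception and feedback (LRP5, LRP6, LGR4, LGR5, LGR6, RNF43, ZNRF3, AXIN1, AXIN2, ROR1, ROR2, RYK, WIF1, APCDD1, NKD1 and NKD2). This gave 53 of the 50867 genes of the deposited table. Of the 53, 36 had a mean of at least 1 CPM (read counts scaled to a common library total) over the 3 libraries and were compared between libraries, as were 15132 genes in all. The cells had been infected with lentivirus and selected with puromycin for 2 weeks. Cells of the group shBLACAT2 carried a hairpin directed at the long non-coding RNA BLACAT2, either shRNA 1 or shRNA 2, with 1 RNA library for each hairpin. Cells of the group shControl carried a scramble hairpin and gave 1 library, so every value per hairpin has no replicate check. All 3 lines shared the parental cells, the viral infection and the drug selection.

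Wnt proteins are secreted, lipid-modified signals that bind frizzled receptors on the surface of a cell. Together with the co-receptors LRP5 or LRP6 they protect beta-catenin from a destruction complex built on axin, and beta-catenin then acts with TCF and LEF proteins on target genes, several of which feed back on the pathway. Other Wnt proteins, WNT5A above all, are best known for signalling without beta-catenin through frizzled, ROR and RYK receptors to cell polarity and movement. LGR receptors bind R-spondins and spare frizzleds from the ubiquitin ligases RNF43 and ZNRF3, and secreted DKK, SFRP and WIF1 proteins hold the signal back outside the cell.

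The libraries held between 16216947 and 17670199 counts. The targeted RNA, listed as LINC00958, had 816 counts with shRNA 1 and 1062 with shRNA 2, against 938 in the control. After scaling these were 0.735 times (95% counting interval 0.668 to 0.808) and 0.996 times (0.911 to 1.09) the control level, so each direction below is that of the libraries as labelled, and loss of the RNA itself was not detectable with shRNA 2. edgeR gave LINC00958 a log2 fold of −0.21 (SE 0.34) with an adjusted p of 0.913. Of 13 epithelial and urothelial markers, 11 passed the 1 CPM filter in this bladder line, while UPK1A and UPK3A had at most 1 count in any library. Of the 11, CDH1, UPK1B and UPK2 stood 2-fold or more above the control with each hairpin, and the other 8 were mixed. EPCAM, GATA3 and PPARG were higher with both hairpins by less than that, and KRT7 and KRT18 were lower with both. KRT5 stood at 0.998 and 0.269 times the control with shRNA 1 and shRNA 2. KRT8 and KRT19 were higher with shRNA 1 and lower with shRNA 2. The 13 markers summed to 4810 and 2769 scaled CPM with shRNA 1 and shRNA 2, against 3780 in the control. Fibroblast markers were lower: summed over 7 genes they held 19.3 and 11.5 scaled CPM with shRNA 1 and shRNA 2, against 360 in the control, almost all of it COL1A1 (328 and 162 counts, against 5253), and the part of either marker group in the results below was not tested. PDGFRB was also lower, with 15 and 31 counts with shRNA 1 and shRNA 2, against 152 in the control. COL3A1 had 0 and 1 counts, against 20, and COL1A2 0 and 1, against 16. DCN and LUM had at most 2 counts in any library and PDGFRA at most 3. No marker of that list was at 0 in all libraries. Endothelial markers summed to 3.52 and 7.50 scaled CPM with the hairpins against 2.97 in the control, and leukocyte markers to 1.34 and 18.5 against 2.78.

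Levels are given as read counts, as CPM scaled between libraries with edgeR's TMM factors, or, where genes are set beside each other, as the FPKM deposited by the authors, which divide by gene length. Ratios to the control come from scaled counts with a 95% exact interval that covers counting error only. Log2 folds were taken on log2 CPM after adding a prior count of 2, which draws the folds of low genes towards 0. A gene was counted as higher or lower by size when both hairpins gave a fold of at least 2 in the same direction.

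By this size rule 8 of the 36 tested Wnt genes were lower with both hairpins (WNT5A, WNT5B, WNT7A, FZD2, FZD10, LGR6, DKK3 and NKD1) and 2 were higher (WNT10A and LGR4). The lower genes made up 22.2% of those tested, against 4.5% of all genes, and the higher genes 5.56%, against 5.29% of all genes. In either direction these were 10 of 36, or 27.8%, beside 9.79% of all genes. With shRNA 1 alone 5 Wnt genes were at least 2-fold higher and 9 lower, where 7.92% and 7.38% of all genes were. With shRNA 2 alone 7 were higher and 10 lower, where 13.0% and 8.76% of all genes were. The 2 hairpins share the control library, so their folds are not independent of each other. The share of members higher with both hairpins was close to that of the table as a whole. All 10 genes held at least 1 scaled CPM in every library. The median log2 fold of the 36 genes was −0.26 with shRNA 1 and −0.18 with shRNA 2, beside 0.01 and 0.04 for all genes tested. In bulk RNA, fewer cells that express a gene and less RNA per cell cannot be told apart.

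edgeR's quasi-likelihood test of both hairpin libraries against the lone control, with 1 residual degree of freedom, passed none of the 36 genes after Benjamini-Hochberg adjustment over all genes, where it passed 0.0397% of the table. At an unadjusted p below 0.05 there were 12 Wnt genes, the 10 named above with LRP5 and ROR1, or 33.3% of the 36 beside 10.2% of all genes. DESeq2 passed 4 of the 36, WNT5A, WNT5B, WNT10A and DKK3, beside 3.48% of all genes, and limma passed 0, beside 0.0% of all genes. The spread behind these p-values is that between the hairpin libraries, moderated over genes, and the lone control is taken to vary like them. Each line, with its own hairpin, gave 1 library, so the spread between cultures of the same line was not measured.

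**Figure D1:**
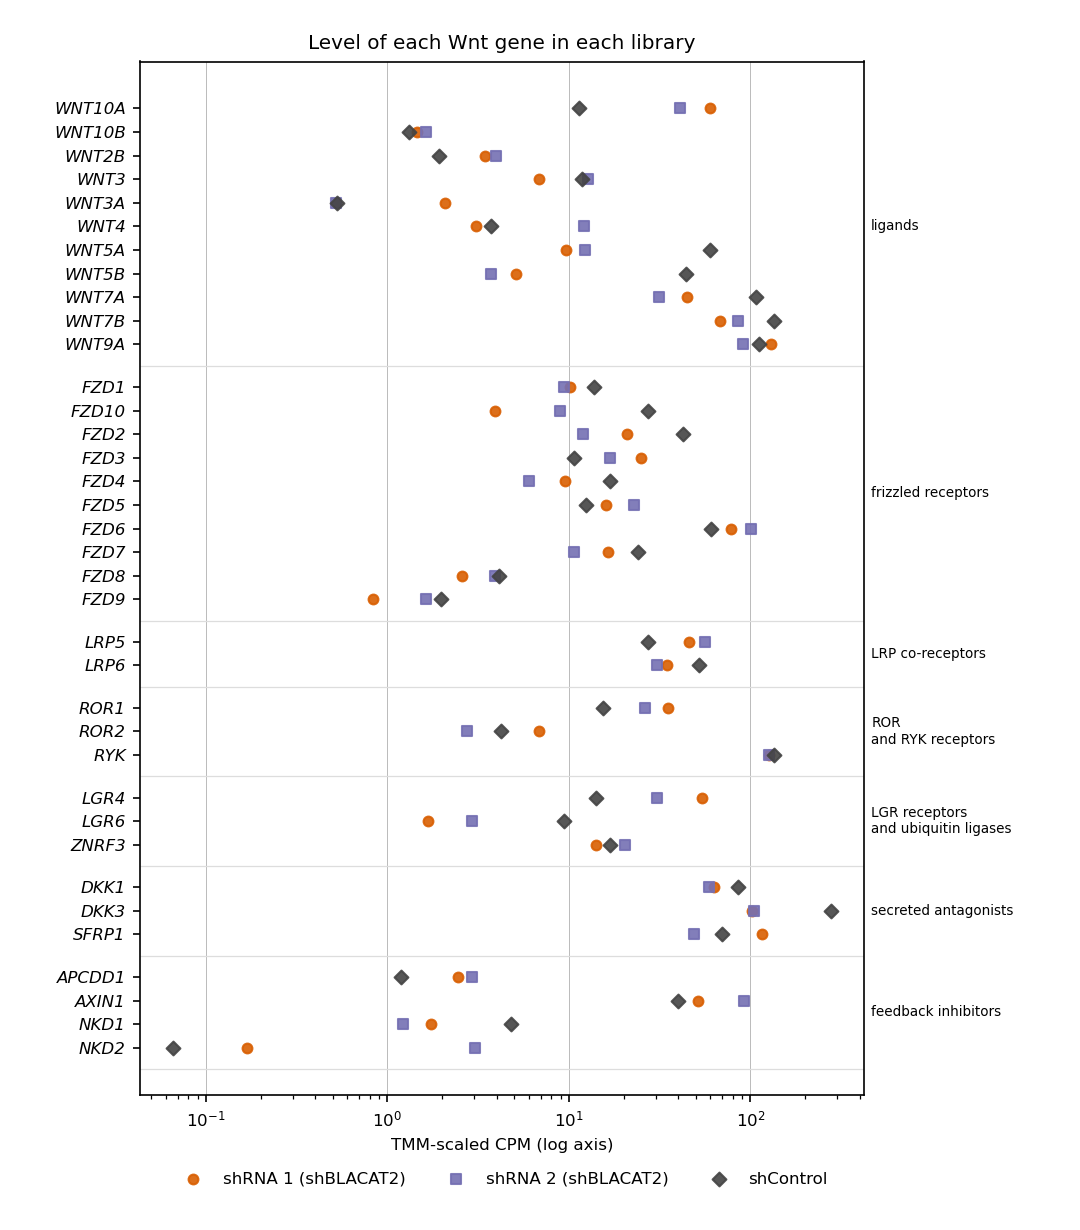
Level of each of the 36 tested Wnt genes in TMM-scaled CPM on a log axis, with 1 point per library (circles shRNA 1, squares shRNA 2, diamonds shControl) and genes grouped by role. For WNT10A and LGR4 both hairpin libraries lie to the right of the control, and for WNT5A, WNT5B and DKK3 both lie far to its left.

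Among the ligand genes, WNT5A and WNT5B, paralogues that act mainly outside the beta-catenin route, were lower and WNT10A, a ligand of skin appendage and tooth development, was higher with both hairpins. The sequences just before their transcription starts are shown because these genes lay furthest from the control with both hairpins among the tested ligands, on opposite sides of it. Each line gives the 250 bases before the most upstream listed start, 5′ to 3′ in the direction of the gene, from RefSeq on GRCh38.p14, with every CG dinucleotide in capitals. They lie at chr2:218880602-218880851 (plus strand), chr3:55487307-55487556 (minus strand) and chr12:1616806-1617055 (plus strand). Each stretch lies inside the bounds of the gene as counted, given below. Those bounds reach further upstream than the RefSeq start used here.
WNT10A: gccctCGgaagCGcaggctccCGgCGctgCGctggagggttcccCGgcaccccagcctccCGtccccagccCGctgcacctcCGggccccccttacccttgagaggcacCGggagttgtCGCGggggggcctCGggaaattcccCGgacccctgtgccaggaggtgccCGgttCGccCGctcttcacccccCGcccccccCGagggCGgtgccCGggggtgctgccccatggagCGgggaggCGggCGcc
WNT5A: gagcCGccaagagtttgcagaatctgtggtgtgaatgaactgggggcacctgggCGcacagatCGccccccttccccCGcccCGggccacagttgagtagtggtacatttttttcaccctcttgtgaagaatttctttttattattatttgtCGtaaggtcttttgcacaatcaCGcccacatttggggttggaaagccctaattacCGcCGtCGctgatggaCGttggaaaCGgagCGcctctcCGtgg
WNT5B: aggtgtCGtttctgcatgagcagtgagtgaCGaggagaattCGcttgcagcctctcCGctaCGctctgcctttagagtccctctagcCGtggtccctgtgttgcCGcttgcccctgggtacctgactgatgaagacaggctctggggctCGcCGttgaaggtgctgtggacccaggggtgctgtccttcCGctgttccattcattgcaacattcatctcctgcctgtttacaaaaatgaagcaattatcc

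The printed stretch holds 24 CG dinucleotides for WNT10A, 14 for WNT5A and 10 for WNT5B. In the full 300-base windows of the table, which add 50 bases after the start, these 3 promoters hold 30, 21 and 10, beside a median of 14 over 35116 promoters of the same length. The table gives 42 such windows for 36 of the 53 Wnt genes, with a median of 29 CG dinucleotides and 69.3% G and C, against 58.7% over all promoters. Those 36 genes are not the 36 tested ones. They include genes under the filter, such as WNT1 and WIF1. Genes without a window, among them FZD2, FZD10, DKK3, NKD1 and AXIN2, were not searched. The core letters of the TCF/LEF motif, CTTTGA read on either strand, occur in 1 of these 42 windows, that of the antagonist gene DKK1, and in 12.9% of all promoters. DKK1 is shown for that reason, with both matches in capitals, from chr10:52314031-52314280 (plus strand).
DKK1: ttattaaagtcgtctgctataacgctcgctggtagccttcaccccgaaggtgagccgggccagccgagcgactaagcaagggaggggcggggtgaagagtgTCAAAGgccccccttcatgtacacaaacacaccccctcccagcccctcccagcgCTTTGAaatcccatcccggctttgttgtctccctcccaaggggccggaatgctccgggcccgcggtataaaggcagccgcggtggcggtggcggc

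The matches in the DKK1 promoter begin 149 and 95 bases before the start. They are matches of letters and not measured binding sites, and windows without them say nothing about the factors.

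WNT5A (ENSG00000114251; hg38, chromosome 3, 55465715 to 55490539, minus strand) had 172 counts with shRNA 1 and 211 with shRNA 2, against 905 in the control. Both hairpin libraries were well below the control and close to each other, at 0.161 times (0.136 to 0.189) and 0.205 times (0.176 to 0.238) its scaled level. The log2 folds averaged −2.45 ± 0.25 (SD, n = 2), with an edgeR estimate of −2.45 (SE 0.35) and adjusted p = 0.0886. DESeq2 gave 0.000339, and the adjusted p ranged from 0.000339 to 0.747 over 6 alternative settings and tools. The antisense gene WNT5A-AS1, which overlaps it by 610 bases, had 9 and 7 counts with the hairpins and 28 in the control.

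WNT5B (ENSG00000111186; chromosome 12, 1529891 to 1647243, plus strand) had 92 and 64 counts with shRNA 1 and shRNA 2, against 666 in the control. This was the lowest pair of ratios among the tested Wnt genes, 0.117 (0.0928 to 0.145) and 0.0845 (0.0643 to 0.109). Its log2 folds averaged −3.30 ± 0.32 (SD, n = 2), with an adjusted p of 0.0766 by edgeR and 3.46e-06 by DESeq2 (3.46e-06 to 0.747 over the alternatives). FBXL14 overlaps WNT5B on the other strand and had 151 and 219 counts with the hairpins against 103 in the control. Since the strand setting of the counting is not given, reads from the 28173 bases that they share cannot be told apart.

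WNT7A (ENSG00000154764; chromosome 3, 13816258 to 13880121), an epithelial ligand that can act through either route, had 804 and 542 counts with the hairpins, against 1630 in the control. Its ratios of 0.417 (0.383 to 0.454) and 0.292 (0.265 to 0.322) left it lower in both libraries, with an edgeR adjusted p of 0.202. Its paralogue WNT7B had 1210 and 1460 counts, against 2030, at ratios of 0.504 (0.469 to 0.541) and 0.633 (0.591 to 0.677). It fell just short of the size rule with shRNA 1 (log2 fold −0.99) and further short with shRNA 2 (−0.66).

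WNT10A (ENSG00000135925; chromosome 2, 218880363 to 218899581, plus strand), which can signal through beta-catenin, had 1066 counts with shRNA 1 and 700 with shRNA 2, against 171 in the control. It stood at 5.27 times (4.48 to 6.23) and 3.60 times (3.04 to 4.28) the control level, with a mean log2 fold of 2.11 ± 0.39 (SD, n = 2). edgeR gave an adjusted p of 0.153 and DESeq2 0.00272 (0.00272 to 0.747 over the alternatives). WNT6 lies 6129 bases away on the same strand and had 4, 4 and 3 counts with shRNA 1, with shRNA 2 and in the control, too few to show a difference at this depth. Of 4 pairs of Wnt genes that lie within 200000 bases of each other, WNT6 with WNT10A, WNT3 with WNT9B, WNT9A with WNT3A and WNT10B with WNT1, WNT10A was the only gene that met the size rule. WNT6, WNT9B and WNT1 were under the 1 CPM filter, so the rule was not applied to them.

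The other tested ligand genes were nearer to the control or differed between the hairpins. WNT9A, the most abundant ligand transcript per length in every library, had 2335 and 1566 counts with the hairpins, against 1678 in the control, or ratios of 1.18 (1.10 to 1.25) and 0.821 (0.766 to 0.880). WNT2B had 62 and 68 counts, against 29, with log2 folds of 0.81 and 1.00, and shares 6648 bases with the opposite gene ST7L (235, 230 and 216 counts). WNT10B had 26 and 28 counts against 20, and WNT3 122 and 219 against 178. WNT4, which acts in kidney and female reproductive tract development, had 209 counts with shRNA 2 alone, against 55 with shRNA 1 and 56 in the control. WNT3A, a classical activator of beta-catenin, had 37 counts with shRNA 1 alone, against 9 with shRNA 2 and 8 in the control.

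The remaining 8 ligand genes (WNT1, WNT2, WNT6, WNT8A, WNT8B, WNT9B, WNT11 and WNT16) had at most 12 counts in any library. WNT16 was at 0 in the control and had 8 and 5 counts with the hairpins, and the lower 95% counting limits of its ratios were 1.44 and 0.806. WNT8B, also at 0 there, had 12 and 2 counts, with lower limits of 2.35 and 0.165, so with shRNA 2 neither gene differed from the control beyond counting error.

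The make-up of the ligand pool, which needs no scaling between libraries, differed between the hairpin libraries and the control. WNT10A made up 20.9% and 17.2% of the summed ligand FPKM with shRNA 1 and shRNA 2, against 3.33% in the control, where it ranked sixth. WNT5A and WNT5B together made up 1.76% and 2.11%, against 10.95%. WNT7A and WNT7B made up 26.5% and 31.8%, against 48.5%, and WNT9A 45.5% and 38.3%, against 32.5%. The pool itself summed to 73.1 and 63.5 FPKM with the hairpins and 79.2 in the control.

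**Figure D2:**
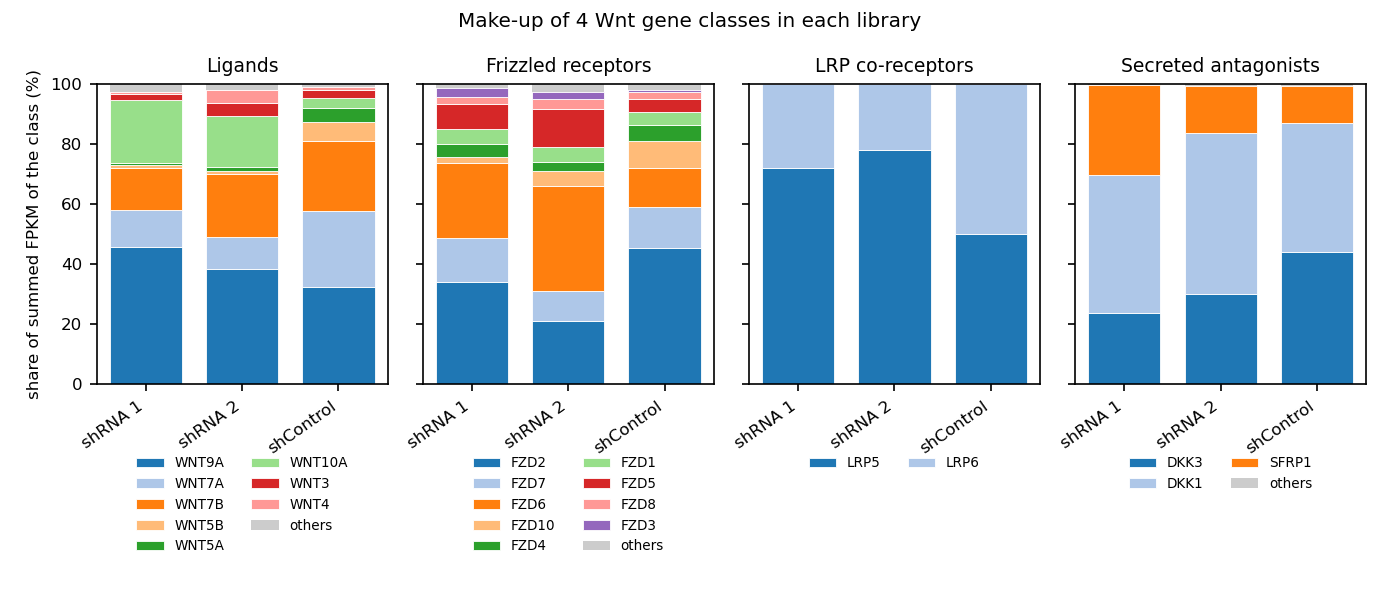
Share of each gene in the summed FPKM of its class in percent, for ligands, frizzled receptors, LRP co-receptors and secreted antagonists, with 1 bar per library in the order shRNA 1, shRNA 2 and shControl and genes under 3% in every library joined as others. The WNT10A band is wide and the WNT5A and WNT5B bands are thin in both hairpin bars, FZD2 shrinks and FZD6 widens against the control, and LRP5 fills over 70% of the LRP bars with the hairpins.

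All 10 frizzled receptor genes passed the filter. Lower by the size rule were FZD10 and FZD2, and none was higher by it. The class summed to 29.5 and 28.8 FPKM with shRNA 1 and shRNA 2, against 41.0 in the control.

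FZD10 (ENSG00000111432; chromosome 12, 130162459 to 130165740, plus strand) had 70 counts with shRNA 1 and 154 with shRNA 2, against 411 in the control. Its ratios were 0.144 (0.110 to 0.186) and 0.330 (0.272 to 0.398), and the level with shRNA 2 was 2.29 times (1.72 to 3.08) that with shRNA 1. FZD2 (ENSG00000180340; chromosome 17, 44557459 to 44559570, plus strand), a receptor through which WNT5A can signal, had 374 and 206 counts, against 642. Its ratios of 0.492 (0.432 to 0.560) and 0.282 (0.240 to 0.331) put shRNA 1 at the edge of the size rule, and with library totals as the scaling FZD2 no longer met it. edgeR's adjusted p was 0.276 for FZD10 and 0.360 for FZD2.

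FZD7, a receptor close in sequence to FZD1 and FZD2, had 293 and 184 counts, against 362 in the control, with log2 folds of −0.54 and −1.15, and FZD1 had 181 and 162, against 208. FZD4, the receptor of norrin in retinal vessels, had 171 and 103 counts, against 256 (log2 folds −0.82 and −1.48). PRSS23 overlaps FZD4 by 7232 bases on the other strand and had 231 and 394 counts with the hairpins, against 1129 in the control, and reads from that stretch cannot be told apart either, so the FZD4 values are uncertain. FZD8 had 46 and 67 counts, against 62, where the sign with shRNA 2 turned with library totals as the scaling, and FZD9 15 and 28, against 30.

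FZD3, FZD5 and FZD6 lay above the control, by less than the size rule with at least 1 hairpin. FZD3, which guides growing axons in mice, had 445 and 288 counts, against 162, at ratios of 2.32 (1.93 to 2.80) and 1.56 (1.29 to 1.91). FZD6, a receptor of planar polarity, had 1394 and 1742 counts, against 917, at ratios of 1.28 (1.18 to 1.40) and 1.67 (1.54 to 1.81). FZD5, a receptor of intestinal and eye epithelia, had 288 and 393, against 187. The shares of FZD2 and FZD6 shifted in opposite directions. FZD2 made up 34.0% and 20.9% of the frizzled FPKM with the hairpins, against 45.2% in the control. FZD6 made up 25.0% and 34.8%, against 12.7%. FZD2 stayed first with shRNA 1 and FZD6 was first with shRNA 2.

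LRP5 and LRP6, the paired co-receptors of the beta-catenin route, lay on opposite sides of the control. LRP5 had 822 and 961 counts with shRNA 1 and shRNA 2, against 411 in the control, at ratios of 1.69 (1.499 to 1.91) and 2.06 (1.83 to 2.31). LRP6 had 620 and 523 counts, against 789, at ratios of 0.664 (0.597 to 0.739) and 0.583 (0.521 to 0.652). The intervals of each gene leave out 1 in both libraries, yet edgeR gave adjusted p-values of 0.456 and 0.569. LRP5 made up 71.9% and 78.0% of the FPKM of both genes with the hairpins and 50.1% in the control.

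Of the receptors for signalling without beta-catenin, RYK, a pseudokinase that binds Wnt proteins, was the steadiest gene of the set between the hairpins, with 2256 and 2176 counts, against 2046 in the control. Its ratios were 0.932 (0.877 to 0.990) and 0.935 (0.880 to 0.994), and its sign turned with library totals as the scaling. ROR1, a receptor of WNT5A, had 627 and 449 counts, against 233, at ratios of 2.27 (1.95 to 2.65) and 1.69 (1.44 to 1.99), with an edgeR adjusted p of 0.485. ROR2, its relative, had 123 and 47 counts, against 64, higher with shRNA 1 and lower with shRNA 2. ROR1 and LRP5 were the tested genes outside the size rule with an unadjusted edgeR p below 0.05.

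LGR4 and LGR6, which bind R-spondins, also stood on opposite sides. LGR4 (ENSG00000205213; chromosome 11, 27365961 to 27472775, minus strand) had 970 and 527 counts with shRNA 1 and shRNA 2, against 212 in the control, at ratios of 3.87 (3.33 to 4.51) and 2.19 (1.86 to 2.58). LGR6 (ENSG00000133067; chromosome 1, 202193901 to 202319781, plus strand) had 30 and 50 counts, against 142, at ratios of 0.179 (0.116 to 0.266) and 0.310 (0.220 to 0.430). The mean log2 folds were 1.53 ± 0.58 and −2.03 ± 0.53 (SD, n = 2 each), with edgeR adjusted p-values of 0.328 and 0.312. The stem cell marker LGR5 had no count with either hairpin and 2 in the control.

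ZNRF3, the ubiquitin ligase that removes frizzleds from the surface, had 252 and 351 counts, against 254, with log2 folds of −0.25 and 0.28. Its partner RNF43 had 8, 14 and 9 counts with shRNA 1, with shRNA 2 and in the control, and overlaps the same-strand gene SUPT4H1 (425, 352 and 371 counts). Per length LGR4 was the first gene of this class in both hairpin libraries, at 6.95 and 4.12 FPKM, against 1.64 FPKM in the control, where ZNRF3 was first at 2.04 FPKM.

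**Figure D3:**
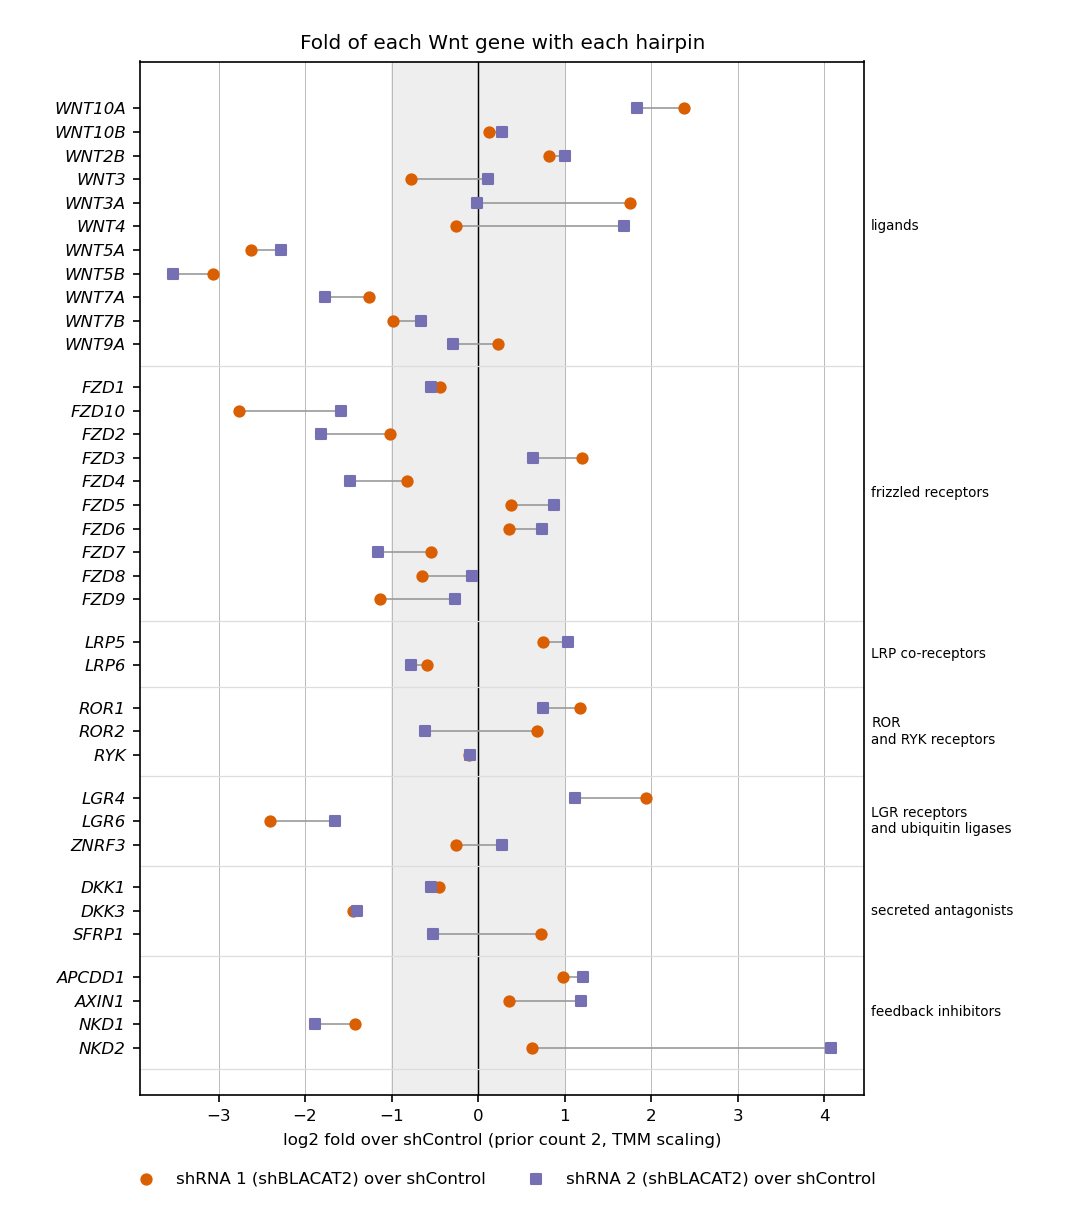
Log2 fold over shControl of each tested Wnt gene with shRNA 1 (circles) and shRNA 2 (squares), joined by a line, with folds under 2 in size shaded. WNT5A, WNT5B, WNT7A, FZD2, FZD10, LGR6, DKK3 and NKD1 have both points left of the shaded band, WNT10A and LGR4 have both right of it, and the long lines of NKD2, WNT4 and WNT3A mark genes on which the hairpins differed.

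Outside the cell, the antagonist pool consisted almost wholly of DKK1, DKK3 and SFRP1, which made up 99.8% and 99.2% of the FPKM of the 9 antagonist genes with the hairpins and 99.5% in the control. DKK3, a divergent member of the dickkopf family that does not share the LRP blockade of DKK1, was lower, and the pool summed to 47.0 and 39.9 FPKM with shRNA 1 and shRNA 2, against 62.6 in the control. DKK3 (ENSG00000050165; chromosome 11, 11963106 to 12009769, minus strand) had 1821 and 1808 counts, against 4209 in the control. The hairpin libraries nearly coincided, at ratios of 0.366 (0.346 to 0.386) and 0.378 (0.357 to 0.399), with log2 folds that averaged −1.43 ± 0.03 (SD, n = 2). edgeR's adjusted p was 0.187 and that of DESeq2 0.0320 (0.0320 to 0.747 over the alternatives).

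DKK1, the LRP-blocking antagonist whose promoter is printed above, had 1121 and 1014 counts, against 1300, at ratios of 0.729 (0.672 to 0.790) and 0.686 (0.631 to 0.745). It was lower in both libraries by less than the size rule, with an edgeR adjusted p of 0.703. SFRP1, a secreted decoy that binds Wnt proteins, had 2064 counts with shRNA 1 and 837 with shRNA 2, against 1056 in the control, so the hairpins lay on either side of it. The other 6 antagonist genes had at most 5 counts in any library, and DKK2 and DKK4 had 0 in all 3. A count of 0 allows a level of up to 0.168 and 0.174 scaled CPM with shRNA 1 and shRNA 2, and 0.198 in the control.

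Among the intracellular and membrane feedback genes, NKD1, a target of beta-catenin that binds dishevelled, was lower. NKD1 (ENSG00000140807; chromosome 16, 50548330 to 50640739, plus strand) had 31 and 21 counts, against 73 in the control, at ratios of 0.359 (0.228 to 0.553) and 0.253 (0.148 to 0.416), with an edgeR adjusted p of 0.443. AXIN2, the most widely used readout of beta-catenin activity, was under the filter, with 9 and 8 counts with the hairpins and 17 in the control. Its ratios were 0.447 (0.176 to 1.06) and 0.414 (0.155 to 1.012), so a difference was not detectable at this depth. AC004805.1 overlaps AXIN2 by 23546 bases on the same strand and had 0 counts in every library. How reads from shared bases were counted is not given, so the AXIN2 level is uncertain. AXIN1, the scaffold of the destruction complex that is not itself a feedback target, had 922 and 1578 counts, against 605, at ratios of 1.29 (1.16 to 1.43) and 2.29 (2.09 to 2.52). APCDD1, a membrane inhibitor, had 44 and 50 counts, against 18, with log2 folds of 0.98 and 1.21, just short of the size rule with shRNA 1. It met the rule with library totals as the scaling and with a prior count of 0.5.

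NKD2 had 52 counts with shRNA 2, against 3 with shRNA 1 and 1 in the control. Its level with shRNA 2 was 18.04 times (5.84 to 90.3) that with shRNA 1 and 45.7 times (7.85 to 1841) that of the control. It passed the filter through the shRNA 2 library alone, so its place among the tested genes rests on the same counts as its fold. WNT3A and FZD9 were the other tested genes with under 1 scaled CPM in at least 1 library.

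The hairpin libraries differed by at least 2-fold in log2 CPM for 6 of the 36 genes. Higher with shRNA 2 than with shRNA 1 were WNT4, FZD10 and NKD2 (8.33% of the tested Wnt genes, beside 8.35% of all genes), and lower were WNT3A, ROR2 and SFRP1 (8.33%, beside 4.48%). NKD2 and WNT3A each passed the filter through the library in which they were high, so both shares include a gene that had to differ. WNT4 was 3.95 times (2.93 to 5.42) as high with shRNA 2 as with shRNA 1, and SFRP1 0.422 times (0.389 to 0.458). With 1 library per hairpin these differences were not tested.

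The rest of the pathway was described with 5 lists of genes that are not members, read beside the medians of 0.01 and 0.04 for all genes and the shares of all genes past the size rule, 4.5% lower and 5.29% higher. WLS, PORCN, TCF7L2, LEF1 and CCND1 are named for their roles although they did not meet the size rule, and were picked after their values were seen. Among 18 genes of ligand maturation, R-spondins and other extracellular regulators, 8 were tested, 1 was lower by the size rule and 0 were higher. That gene was GPC4, a heparan sulfate proteoglycan of the cell surface, with 31 and 63 counts with the hairpins, against 800 in the control (log2 folds −4.84 and −3.81). WLS, which carries Wnt proteins to the surface, had 551 and 553 counts, against 309, and PORCN, which attaches their lipid, 485 and 755, against 635. The medians of the 8 genes were −0.29 and 0.05.

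All 19 genes of the destruction complex and signal transduction were tested, and 3 were lower by the size rule: CTNNB1, DACT1 and DACT3. CTNNB1, the gene of beta-catenin itself, had 9204 and 6584 counts, against 15865 in the control (log2 folds −1.03 and −1.45), and no longer met the size rule with library totals as the scaling. DACT1, a dishevelled-binding protein, had 10 and 13 counts, against 312 (−4.94 and −4.57), and DACT3 7 and 10, against 65 (−3.11 and −2.66). Both passed the filter through the control library alone, so their place among the tested genes rests on the same counts as their folds. The other 16, among them APC, GSK3A, GSK3B, CSNK1A1 and all 3 dishevelled genes, were neither, and the list's medians were −0.19 and 0.08.

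Of 13 tested genes of the TCF/LEF complex, TCF7 alone met the size rule, lower, with 194 and 113 counts, against 828 (log2 folds −2.32 and −3.04). It is the main transducer of this family in T cells and is itself a beta-catenin target. TCF7L2, the main form in epithelia, had 269 and 317 counts, against 279, and LEF1 at most 4 in any library. The list's medians were −0.28 and −0.39.

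Of 16 tested target genes of beta-catenin that are not members, 5 were lower by the size rule and 1 was higher. Among the lower were TCF7, JUN (989 and 842 counts, against 2704), FGF18 (61 and 49, against 171) and EPHB2 (2161 and 3462, against 6358), which no longer met the rule with library totals as the scaling. Higher was MYC, with 1915 and 2509 counts, against 646 in the control. CCND1, another common target, had 6136 and 5672 counts, against 5978 (log2 folds −0.21 and −0.26). The medians were −0.65 and −0.94. The target list thus held genes on both sides of the control.

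In the planar polarity and calcium arm all 24 genes were tested, with medians of −0.15 and 0.05. CELSR1, an adhesion receptor of planar polarity, was lower (898 and 1444 counts, against 2833), and ROCK1, a kinase downstream of RHOA, was higher (2326 and 1895, against 826). ROCK1 no longer met the size rule with DESeq2 size factors, nor CELSR1 with library totals. The other 22, among them VANGL1, VANGL2, PTK7, RAC1 and RHOA, were neither. Over the 5 lists edgeR passed 0 genes after adjustment over all genes, and limma passed 0 genes in the whole table. At an unadjusted p below 0.05, where 10.2% of all genes lay, the lists held 1, 3, 2, 5 and 3 of their 8, 19, 13, 16 and 24 tested genes in the order given. DESeq2, which passed 3.48% of all genes, passed 1, 1, 1, 3 and 0, namely GPC4, DACT1, TCF7 in both lists that hold it, JUN and MYC.

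**Figure D4:**
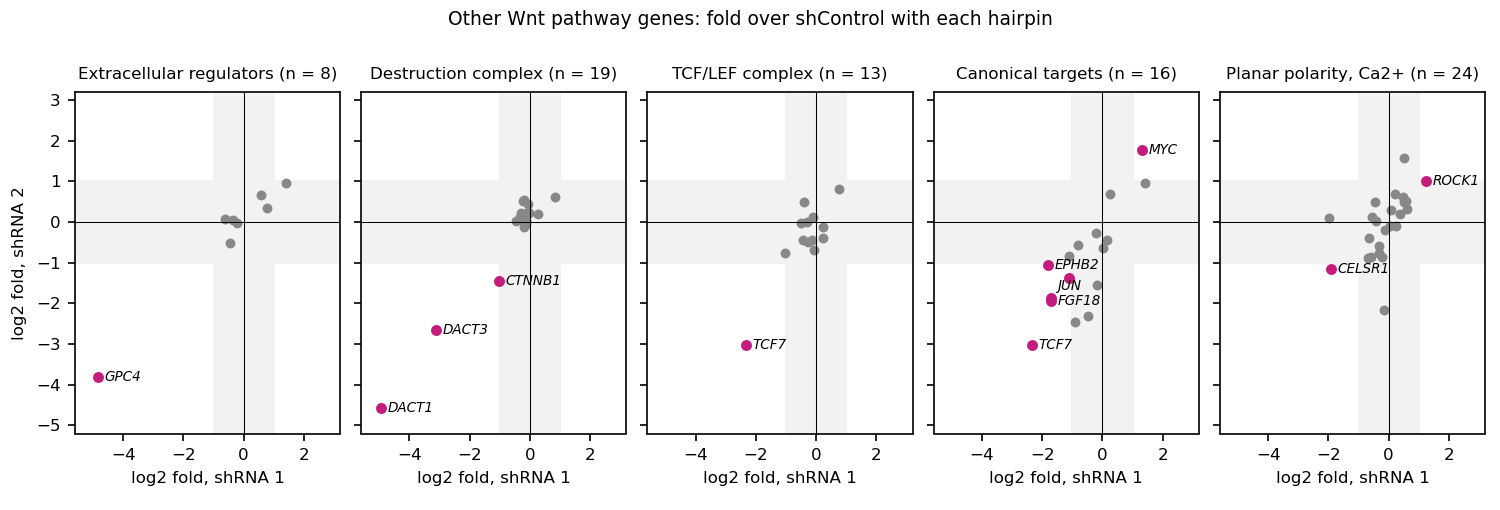
Log2 fold over shControl with shRNA 1 (horizontal) and shRNA 2 (vertical) for the tested genes of 5 further Wnt pathway lists, 1 panel per list and 1 point per gene, with folds under 2 in size shaded and genes past the size rule with both hairpins in colour, those described in the text named. GPC4, DACT1, DACT3 and TCF7 lie far to the lower left, and MYC and ROCK1 to the upper right.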

How the data were processed

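Polyadenylated RNA of 3 UM-UC-3 libraries (2 shBLACAT2, 1 shControl) was sequenced after a stranded mRNA preparation, per the labels' protocols. The deposited table gives whole-number read counts per gene and FPKM, made by the authors. TopHat2 2.0.9 and hg38 are named in the submitters' processing notes. For the counting tool, its strand setting, the annotation release and any filter, the sources used here give nothing. A row broken over 4 lines was left out, which left 50867 genes. No per-sample column was left unused.

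Counts were filtered at a mean of 1 CPM, scaled by TMM (factors 1.02 for shRNA 1, 1.07 for shRNA 2 and 0.924 for the control) and tested with edgeR 4.0.16 (quasi-likelihood, two-sided, adjusted p below 0.05), with DESeq2 1.42.0 and limma 3.58.1 as alternatives, in R 4.3.3. The procedure was run on simulated counts in which both hairpins had the same true folds. That run does not cover hairpins that differ from each other, as they do here. The 1 residual degree of freedom of edgeR lies between the hairpin libraries, and the same spread is taken to hold for the control. FPKM served to set levels of different genes side by side. Overlapping genes and strands come from GENCODE release 29, matched by gene identifier. Intervals used SciPy 1.17.1.

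Members past the filter were named with values and others by count, except WNT6, WNT8B, WNT16, LGR5, RNF43 and AXIN2, picked for their role, position or control count of 0 after their values were seen. From other lists, genes past the size rule were named, apart from a target gene that is not reported here. Members and lists were chosen with earlier results of these data known.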

Additional observations from a re-analysis of the deposited data

Results flagged for a closer look

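For 4 Wnt genes the log2 folds of the hairpins had opposite signs and lay at least 2-fold apart. The counting interval included the control level for WNT4 with shRNA 1 (0.830 times, 0.562 to 1.23). It also did so for WNT3A with shRNA 2 (0.989 times, 0.339 to 2.95). The differences between the hairpin libraries were not tested, since each hairpin has 1 library. The difference of log2 folds, shRNA 2 minus shRNA 1, was −1.77 for WNT3A, which had 9 counts with shRNA 2 and 37 with shRNA 1 and whose sign with shRNA 2 turned when library totals were the scaling. WNT3A passed the 1 CPM filter through the shRNA 1 library alone, in which it was high. It was 1.94 for WNT4, −1.29 for ROR2 and −1.24 for SFRP1. The library with shRNA 2 held 0.253 times (95% counting interval 0.107 to 0.534) the WNT3A level, 3.95 times (2.93 to 5.42) the WNT4 level, 0.398 times (0.278 to 0.561) the ROR2 level and 0.422 times (0.389 to 0.458) the SFRP1 level of the library with shRNA 1.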

How the results depend on the processing

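The count of Wnt genes at least 2-fold higher with both hairpins was 2. It became 4 with a prior count of 0.5, 8 under a 1.5-fold rule, 1 under a 3-fold rule and 5 to 7 with either hairpin library left out. The count at least 2-fold lower was 8, and became 4 under the 3-fold rule and 6 to 11 under the other settings. With 1 hairpin library left out, the counts are those of the other hairpin alone. Of all genes, 7.92% to 13.0% were then higher and 7.38% to 8.76% lower. Shares of all genes under the other rules were not taken, here or for the lists below. Adjusted edgeR calls numbered 0, against 4 with DESeq2, and the cause was not tested. With 1 hairpin library left out no residual degree of freedom remained, so edgeR gave no test.

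Among the other lists, the destruction complex had 2 lower in place of 3 with library totals and with a mean of at least 5 CPM. Extracellular regulators went to 1 higher with library totals, with a prior count of 0.5, and 0 to 1 with a library left out, and to 3 lower with no filter. The TCF/LEF list had 1 to 2 lower with a library left out. Target genes had 2 higher with library totals and with a prior count of 0.5, 1 to 2 with a library left out, and 3 lower with library totals and 6 to 8 with a library left out. In the polarity list the 1 higher gene was lost (0) with DESeq2 size factors and with no filter, with 1 to 2 when a library was left out, and the 1 lower gene was lost (0) with library totals, with 2 when either library was left out. FPKM sums rescaled by TMM were 27.0 for frizzleds with shRNA 2 (deposited 28.8), 44.3 for frizzleds in the control (41.0) and 67.8 for antagonists in the control (62.6).

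Library totals moved the median of all genes to 0.14 and 0.24 with shRNA 1 and shRNA 2. No mean log2 fold reported with a call changed sign. No paired analysis was possible because 1 control library stands against both hairpin libraries. With 1 control library, its own deviation enters every fold with both hairpins alike, and genes under about 20 counts have wide counting intervals.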
